A study of Mus musculus with 22 samples.

Results

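Benzo[a]pyrene (BAP) was compared with no BAP in squamous tumours that kept wild-type Keap1, using 12 RNA-seq libraries of the 22 in the series. The members were chosen by label: the 6 libraries labelled as Keap1-wildtype tumours with BAP treatment and the 6 labelled as Keap1-wildtype tumours with none. Both groups carried the Cre allele Krt5CreER-T2/+ and the floxed alleles Trp53fl/fl, together with the transgene written as Rosa26LSL-PIK3CA(H1047R)/LSL-PIK3CA(H1047R). The Cre recombinase is driven by Krt5, a gene of basal keratinocytes, and removes Trp53 and switches on the mutant PIK3CA transgene in the cells where it acts. Tumours were started in the buccal mucosa of the mouth by injecting 4-hydroxytamoxifen, which activates this Cre, and BAP was or was not given with it. Thus the untreated controls are also tumours without intact Trp53, and BAP is the only labelled difference between the groups. The labels give no age, sex or dose, and they do not say whether each tumour came from its own mouse, so the p-values measure only the spread between these samples. The 10 Keap1-deleted libraries of the series (5 untreated, 5 BAP) enter below only where the effect of BAP is compared between genotypes and where all libraries share 1 estimate of the spread. A library is named by its group and number; untreated 6 is the library that stood furthest from the rest, and the main results are given with and without it.

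BAP is a polycyclic aromatic hydrocarbon of tobacco smoke and a procarcinogen. It binds the aryl hydrocarbon receptor (AHR), which then enters the nucleus, pairs with ARNT and binds DNA at a short core motif near genes such as Cyp1a1 and Cyp1b1. The cytochrome P450 enzymes made from these genes convert BAP to epoxides that form bulky DNA adducts, and p53, where present, answers such damage by switching on genes such as Cdkn1a and Mdm2. KEAP1 holds down NRF2 (the product of Nfe2l2), the factor that switches on genes of detoxification such as Nqo1.

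The promoters of the pair of P450 genes are shown because they carry the motif through which BAP is known to act. Each line gives the 250 bases before the RefSeq start on GRCm38.p6, 5′ to 3′ on the gene's strand, with the AHR core motif in capitals.
Cyp1a1: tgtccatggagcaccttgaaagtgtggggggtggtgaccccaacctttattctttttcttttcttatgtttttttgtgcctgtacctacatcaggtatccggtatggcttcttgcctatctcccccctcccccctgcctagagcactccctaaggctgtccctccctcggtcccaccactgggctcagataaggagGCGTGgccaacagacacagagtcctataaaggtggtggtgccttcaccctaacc
Cyp1b1: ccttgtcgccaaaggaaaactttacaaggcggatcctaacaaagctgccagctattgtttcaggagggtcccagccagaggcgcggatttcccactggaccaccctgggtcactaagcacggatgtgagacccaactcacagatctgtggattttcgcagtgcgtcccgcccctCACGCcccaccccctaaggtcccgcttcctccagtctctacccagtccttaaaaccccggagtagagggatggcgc
The Cyp1a1 stretch lies at chr9:57697363-57697612 on the plus strand and holds 1 match to GCGTG. The Cyp1b1 stretch lies at chr17:79715062-79715311 on the minus strand and holds 1 match on the other strand, read here as CACGC. Of 32851 RefSeq promoters of the same length, 9250 (28.16%) held GCGTG on either strand, so a match describes the sequence and is not a binding site.

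The libraries held 29602879 to 38345425 counts in the untreated group and 30579115 to 36087574 in the BAP group. Untreated 6 and untreated 2 stood apart: they were the extremes of the first principal component (33.64% of the variance) and of the second (16.27%). Untreated 6 lay more than 1 log2 unit above all 11 other libraries in 1360 genes and below all of them in 1249, and untreated 2 did so in 395 and 451. The labelled cell type was checked against Krt5 and Krt14, the keratin pair of basal keratinocytes. Krt5 was at 201 CPM (counts scaled to a common library size) in untreated 6 and between 4583 and 7694 in the other untreated libraries, and Krt14 was at 763 against 9991 to 36960. The BAP libraries ran from 4645 to 10080 for Krt5. Untreated 6 therefore goes against its label as a squamous carcinoma by these keratins. Every untreated title carried a lower sample number than every BAP title, so sample order and treatment cannot be told apart. A suffix R, whose meaning is not given, stood on 4 untreated titles and 1 BAP title. Xist, a transcript of female cells, exceeded 10 CPM in 2 untreated and 5 BAP libraries, so the sexes may not be balanced. Ddx3y, a gene of the Y chromosome, exceeded 10 CPM in 3 untreated and 2 BAP libraries. BAP 1 exceeded it in both genes (Xist 14.1, Ddx3y 61.6) and untreated 4 in neither (2.2 and 4.59), so the sex of these libraries is unclear. With Ddx3y added to the model as a covariate, edgeR called 0 genes for BAP, with 1911 at an unadjusted p under 0.05 against 2622 without the covariate.

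At the genes through which BAP is known to act, no difference passed edgeR's test. Cyp1a1 (gene ENSMUSG00000032315, chr9:57687928-57703824 in GENCODE M21 on GRCm38) had 0, 0.408 and 2.60 CPM as the lowest, median and highest untreated value and 0, 0.634 and 6.66 in the BAP group. Both groups held a library at 0, and BAP 2, at 6.66, was the only BAP library above the untreated range. The log2 fold change of BAP over untreated was 0.89 ± 1.21 (SE, n = 6 and 6; edgeR adjusted p = 0.796), and 0.69 ± 1.27 without untreated 6. Ahrr, which encodes a repressor of AHR and is itself an AHR target, stayed at or under 0.518 CPM in every library. Tiparp, an AHR target that damps the receptor, had 41.4, 57.8 and 97.7 CPM untreated and 36.3, 106 and 155 with BAP. Its BAP values reached above and below the untreated ones, and the log2 fold change was 0.59 ± 0.30 (SE; edgeR adjusted p = 0.405), and 0.51 ± 0.32 without untreated 6.

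Cyp1b1, the other P450 gene shown above (ENSMUSG00000024087, chr17:79701537-79715061), was lower in the BAP tumours by value. It had 2.28, 3.47 and 37.8 CPM untreated and 0.382, 0.845 and 3.0 with BAP. BAP 2, at 3.0 CPM, was the only BAP library within the untreated range. The next highest, BAP 6 at 1.42, lay below every untreated library. Of the untreated libraries 2 stood far above the other 4: untreated 5 at 37.8 and untreated 6 at 29.5 CPM. The log2 fold change was -3.51 ± 0.84 (SE) with an edgeR adjusted p of 0.145, and -3.10 ± 0.83 without untreated 6 (edgeR adjusted p = 0.425). DESeq2 called it lower, with an adjusted p of 0.000729 with every library and 0.0229 without untreated 6. Untreated 5 and 6 also held the highest averaged log2 CPM of the fibroblast genes, given below, and the part of fibroblasts in the Cyp1b1 value was not tested. Ahr itself had 17.5, 24.6 and 33.7 CPM untreated and 11.1, 21.1 and 43.7 with BAP.

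Of 20 genes of the AHR list, 19 were tested, and 1 (Cyp1b1, lower) had an unadjusted p under 0.05. Over all 19202 genes tested, 11.6% were lower and 2.06% higher with BAP at that p. The median log2 fold change of the list was 0.13, beside -0.09 over all genes. Without untreated 6 the count was again 1, with a median of 0.05 beside -0.05 over all genes. Of 34 genes of wider xenobiotic metabolism 31 were tested, with a median of -0.04 with every library and -0.001 without untreated 6. In both fits 1 gene, lower, had an unadjusted p under 0.05. That gene was Sult1a1, a sulfotransferase for phenols, with 0, 1.57 and 10.4 CPM untreated and 0, 0.151 and 0.860 with BAP. The Sult1a1 groups overlapped below 1 CPM, and its highest value came from untreated 6.

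Genes that p53 and NRF2 control did not pass the test in either direction. Cdkn1a, which encodes the cell-cycle inhibitor p21, had 64.0, 181 and 367 CPM untreated and 274, 318 and 383 with BAP. The lowest BAP value lay above the untreated median, and the log2 fold change was 0.85 ± 0.43 (SE; edgeR adjusted p = 0.392), and 0.68 ± 0.42 without untreated 6. Mdm2, the ubiquitin ligase that p53 induces, had 39.9, 57.9 and 127 CPM untreated and 36.8, 56.6 and 70.9 with BAP. Trp53 itself had 6.34, 12.3 and 25.2 CPM untreated and 6.65, 10.2 and 13.4 with BAP, so its residual level did not separate the groups. Of 28 p53 targets none had an unadjusted p under 0.05 with every library or without untreated 6, and their median log2 fold changes were -0.01 and 0.03.

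Of 43 DNA repair genes, 1, higher with BAP, had an unadjusted p under 0.05 in both fits: Fanci, of the Fanconi pathway that handles DNA crosslinks. It had 1.94, 3.05 and 4.70 CPM untreated and 4.3, 5.0 and 7.53 with BAP, so that the ranges overlapped only between 4.3 and 4.70, with a log2 fold change of 0.86 ± 0.30 (SE; edgeR adjusted p = 0.194), and 0.88 ± 0.32 without untreated 6. Of 36 NRF2 genes 34 were tested, with a median log2 fold change of 0.24 (0.18 without untreated 6) and no unadjusted p under 0.05 in either fit. Nqo1, the quinone reductase shared by the AHR and NRF2 responses, had 19.4, 43.2 and 79.4 CPM untreated and 30.6, 53.8 and 85.8 with BAP. Keap1 had 45.8, 55.7 and 78.9 CPM untreated and 52.3, 57.5 and 64.6 with BAP, ranges that overlapped. Nfe2l2 had 102, 169 and 307 CPM untreated and 84.6, 302 and 435 with BAP, with BAP 2 the lowest of all 12.

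Over the whole transcriptome, 0 of 19202 genes (0%) passed an adjusted p under 0.05 in edgeR's quasi-likelihood test, and the smallest adjusted p was 0.145. At an unadjusted p under 0.05 there were 2622 genes, 396 higher with BAP (2.06%) and 2226 lower (11.6%). The genes were therefore mostly on the lower side, and limma-voom also called 0. DESeq2 called 892 at the same threshold, 26 higher and 866 lower, and 653 of the 866 had their highest untreated value in untreated 6. Over all genes tested, untreated 6 held the highest untreated value in 27.34%. Over libraries, lower RNA per cell and fewer cells of a type cannot be told apart in such bulk tumours.

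Without untreated 6, edgeR called 0 of 18984 genes (0%), with a smallest adjusted p of 0.34. At an unadjusted p under 0.05 there were then 1767 genes, 376 higher (1.98%) and 1391 lower (7.33%). Leaving that library out thus took away mostly genes on the lower side. DESeq2 then called 82 genes, 4 higher and 78 lower, of which 77 were among its 892 with the same sign. Of 2578 genes at an unadjusted p under 0.05 with every library and tested in both fits, 1303 were so again with the same sign without untreated 6. Between the fits, 2446 of the 18984 genes tested in both (12.88%) changed the sign of their fold change.

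The log2 fold changes had a median of -0.09 and an SD over genes of 1.08, with a long lower tail. The 5th and 95th percentiles were -2.46 and 0.80, and the median size of a fold change, whatever its sign, was 0.36. Past 1 log2 unit there were 585 genes on the higher side (3.05%) and 3388 on the lower side (17.6%). The tail was thus nearly all toward lower values with BAP. Without untreated 6 the SD over genes was 0.90, and 604 genes lay above 1 and 2338 below -1. Of 3269 genes below -1 that were tested in both fits, 2096 were still below -1 without that library.

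The fold changes depended on how abundant a gene was. Among 4607 genes that averaged under 1 CPM the median log2 fold change was -0.58 with an SD of 1.57. Among 2020 genes over 100 CPM the median was 0.19 with an SD of 0.52. The abundant genes thus lay slightly on the higher side and the scarce ones on the lower side, and without untreated 6 the medians were -0.44 and 0.16. The centre depends on the scaling: the median over all genes was -0.09 with TMM factors, -0.11 with DESeq2 size factors and -0.27 with library totals alone.

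**Figure D1:**
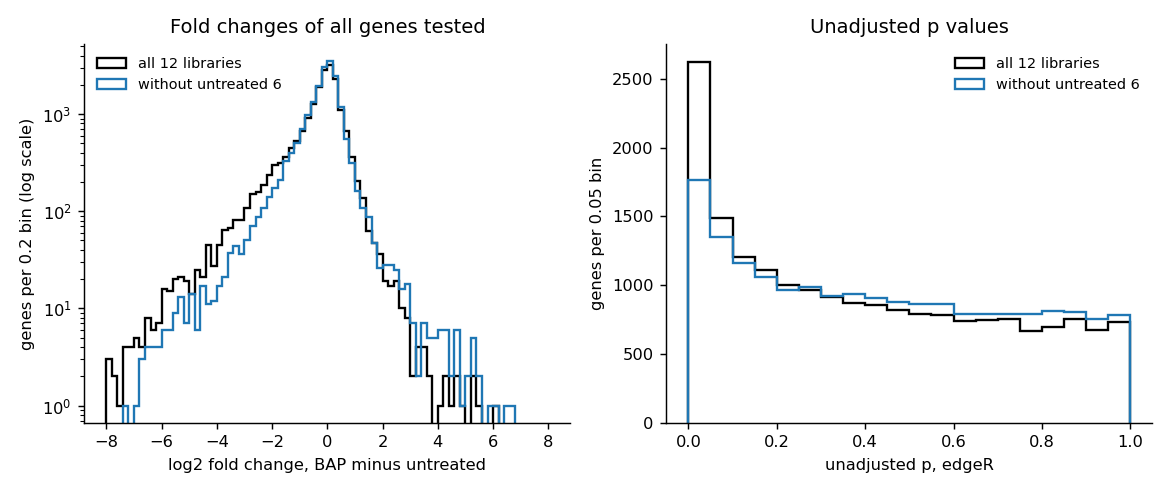
Left, distribution of log2 fold changes of BAP over untreated (genes per bin on a log vertical axis); right, unadjusted edgeR p-values (genes per bin). Black lines use every library and blue lines leave out untreated 6; the lower tail is the longer one, with a 5th percentile of -2.46 with every library and -1.75 without untreated 6.

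On the lower side the smallest p-values belonged to Naip5, Dnm3os, Iffo1, Pld4 and Csf2ra, with Il15ra joining them without untreated 6. Pld4, a phospholipase-family nuclease of myeloid and dendritic cells (chr12:112760655-112768990), had 7.35, 10.8 and 199 CPM untreated and 1.87, 2.69 and 4.07 with BAP. Every untreated value lay above every BAP value, and untreated 6 was the one at 199. The log2 fold change was -3.90 ± 0.78 (SE; edgeR adjusted p = 0.145), and -2.10 ± 0.44 without untreated 6.

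Naip5, an inflammasome sensor of bacterial flagellin (chr13:100211739-100246323), had 0.772, 1.82 and 7.15 CPM untreated and 0.115, 0.190 and 0.615 with BAP. The groups did not overlap, at low levels on both sides. Its log2 fold change was -3.28 ± 0.61 (SE; edgeR adjusted p = 0.145), and -2.66 ± 0.54 without untreated 6. Naip5 has close paralogs, so how the authors' counting split reads among them is uncertain. Csf2ra, the alpha chain of the GM-CSF receptor, had 28.9, 39.9 and 90.3 CPM untreated and 8.25, 15.8 and 20.9 with BAP. These groups also lay apart, and the log2 fold change of -1.67 ± 0.34 was -1.39 ± 0.32 without untreated 6.

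Dnm3os, a noncoding RNA antisense to Dnm3 that hosts microRNAs of mesenchymal cells, had 2.47, 5.77 and 24.7 CPM untreated and 0.933, 1.66 and 2.74 with BAP. The ranges met only between 2.47 and 2.74, and the counting may not separate this RNA from its overlapping gene. Iffo1, a lamina-associated intermediate filament family protein, had 3.05, 3.46 and 14.8 CPM untreated and 1.34, 1.42 and 1.67 with BAP. Its BAP libraries were close to each other and all under the untreated ones, with a log2 fold change of -2.12 ± 0.41 (SE; edgeR adjusted p = 0.145). Il15ra, the IL-15 receptor alpha chain, had 8.22, 16 and 27.8 CPM untreated and 3.55, 6.47 and 8.29 with BAP. DESeq2 called Pld4, Naip5, Csf2ra, Dnm3os and Iffo1 lower.

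On the higher side the smallest p-values belonged to Osbpl10, Reep2, Copb1, Pgk1 and Espn. Pgk1, phosphoglycerate kinase of glycolysis, had 358, 809 and 1144 CPM untreated and 1134, 1293 and 1636 with BAP. Only the tops and bottoms of the ranges met, and the log2 fold change was 0.79 ± 0.23 (SE; edgeR adjusted p = 0.157), and 0.81 ± 0.25 without untreated 6. Copb1, a coat protein of vesicles that return to the endoplasmic reticulum, had 81.8, 107 and 149 CPM untreated and 129, 153 and 179 with BAP. The Copb1 ranges overlapped between 129 and 149, with a log2 fold change of 0.49 ± 0.14.

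Osbpl10, an oxysterol-binding protein, had 3.58, 5.29 and 10.2 CPM untreated and 5.56, 12.7 and 21.9 with BAP. Its log2 fold change was 1.20 ± 0.33, and 1.21 ± 0.35 without untreated 6, with overlapping ranges. Reep2 and Espn, the latter an actin-bundling protein, had log2 fold changes of 1.69 ± 0.48 and 2.00 ± 0.61, both at under 5 CPM in the untreated median. Without untreated 6, Srprb, a subunit of the signal recognition particle receptor, had the smallest p on this side among genes of at least 1 CPM, with 38.1, 39.2 and 52.7 CPM in the other 5 untreated libraries and 41.1, 66.2 and 78.2 with BAP. Its log2 fold change was 0.61 ± 0.17 in that fit and 0.46 ± 0.18 with every library.

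**Figure D2:**
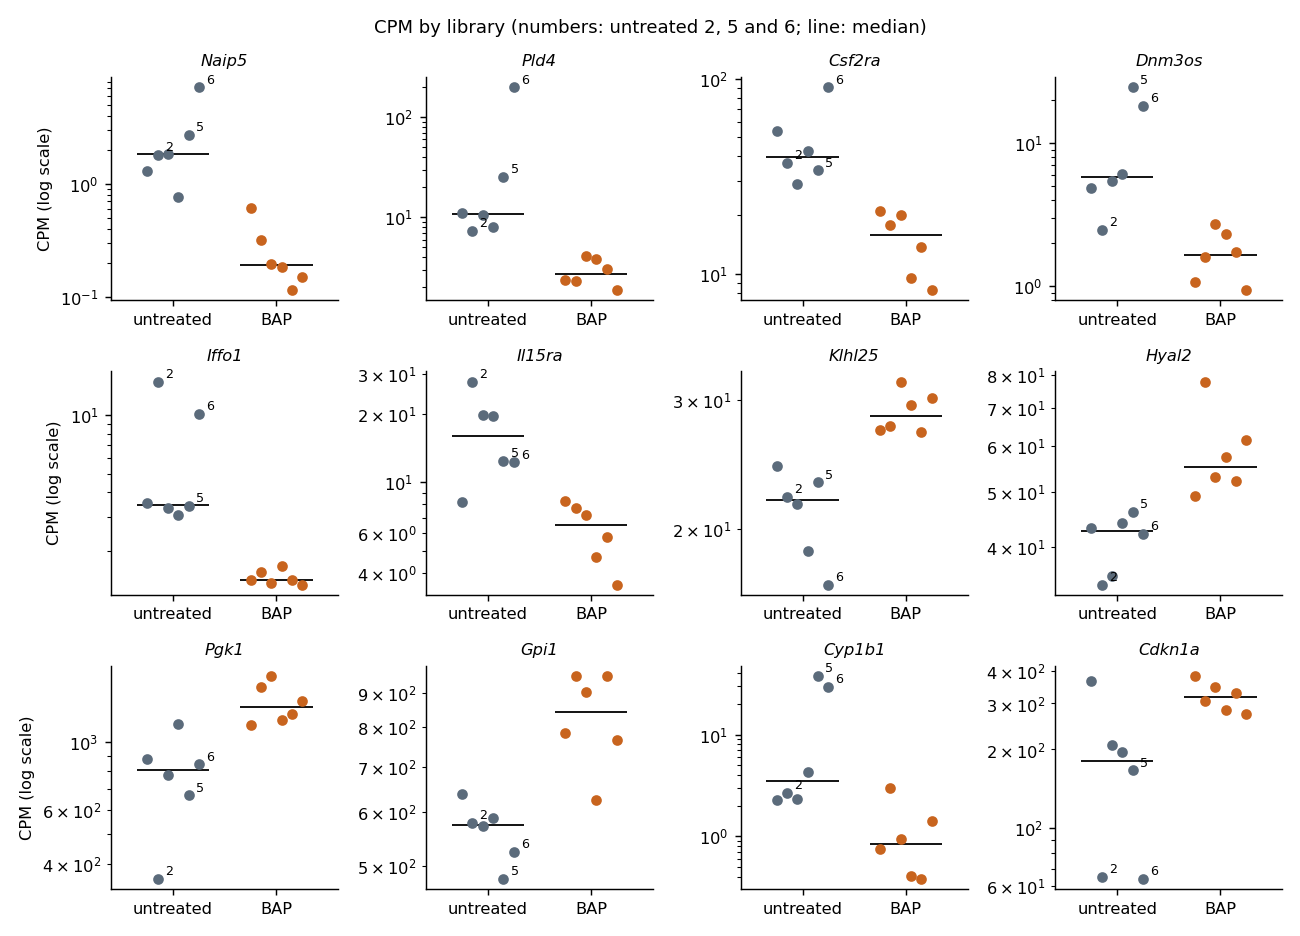
Level of 12 named genes in each of the 12 libraries (CPM on a log vertical axis; points are libraries, lines are group medians, and untreated 2, 5 and 6 carry their numbers). Pld4 shows no overlap of the groups with untreated 6 at 199 CPM, and Cyp1b1 shows untreated 5 and 6 at 37.8 and 29.5 CPM.

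In 16 genes (0.0833%) every BAP library lay above every untreated one, and in 39 (0.203%) every BAP library lay below. At a mean of 1 CPM or more these were 14 and 31 genes. With the labels shuffled, a gene would lie fully apart in a given direction in 1 of 924 arrangements. The 16 higher genes made up less than that share of all genes, and the 39 lower ones more. The counts were not tested against that share, and the genes come from the same libraries. The higher genes below are thus given as values only. Among the higher ones the widest gaps were in Adm2, a peptide of the calcitonin family, with 3.13, 9.80 and 16.1 CPM untreated and 20.0, 25.5 and 34.4 with BAP. Klhl25, an adaptor for a ubiquitin ligase, had 16.8, 21.9 and 24.4 CPM untreated and 27.1, 28.6 and 31.8 with BAP. Hyal2, a hyaluronidase at the cell surface, had 34.4, 42.7 and 46.2 CPM untreated and 49.2, 55.3 and 77.9 with BAP. These 3 genes, picked for their gaps, had log2 fold changes of 1.46 ± 0.61, 0.45 ± 0.14 and 0.52 ± 0.18, none past the edgeR threshold.

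Among the lower ones, Foxf1, a transcription factor of mesenchyme, had 1.42, 1.99 and 2.75 CPM untreated and 0.159, 0.320 and 0.652 with BAP. Abi3bp, an extracellular matrix protein, had 12.7, 21 and 28.4 CPM untreated and 3.63, 6.70 and 9.35 with BAP. Their log2 fold changes without untreated 6 were -2.43 ± 0.70 and -1.57 ± 0.49. Csf2ra, Pld4, Iffo1, Naip5 and Ccr7, the chemokine receptor that guides cells to lymph nodes, were also among the 39.

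Gene lists named for cell types and pathways were then read against the share of all genes at an unadjusted p under 0.05, 11.6% lower and 2.06% higher. The shares without untreated 6 were 7.33% and 1.98%. They depended on abundance: with every library, 922 of 4756 genes averaging 1 to 10 CPM were lower and 50 higher. Past 100 CPM, 56 of 2020 genes were lower and 105 higher. Lists were not matched for abundance, so the shares are only a rough guide. Of 25 fibroblast and matrix genes 22 were on the lower side at that p, with a median log2 fold change of -2.71. Without untreated 6 it was 12 of 25, with a median of -1.46. Fold changes here and below follow the mean counts of a group, so a few very high libraries weigh heavily in them. Between the group means of the list's averaged log2 CPM the difference was smaller, -1.32 with every library and -0.74 without untreated 6. Averaged over its genes, the list stood at a log2 CPM of 8.78 in untreated 5 and 9.36 in untreated 6, against 4.58 to 6.02 in the other 4 untreated libraries and 4.43 to 5.68 in the BAP group. The 4 other untreated libraries thus overlapped with the BAP libraries, and the list stood high in 2 of 6 untreated libraries. Dcn, decorin of the collagen matrix, had 6.02, 33.0 and 464 CPM untreated and 4.63, 11.1 and 26.1 with BAP. Fap, a protease of activated fibroblasts, had 0.554, 3.21 and 67.9 CPM untreated and 0.445, 0.819 and 2.04 with BAP.

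Interferon and macrophage genes followed the same libraries. Of 26 genes of the type I interferon response 23 were on the lower side at an unadjusted p under 0.05, with a median of -2.42, and 9 of 26 without untreated 6, with a median of -1.29. Their averaged log2 CPM differed by -1.44 between the group means, and by -0.84 without untreated 6. Oas2, an antiviral enzyme that senses double-stranded RNA, had 2.90, 10.4 and 48.8 CPM untreated and 1.03, 2.65 and 3.32 with BAP. Only untreated 4, at 2.90, reached into the BAP range. Of 24 macrophage genes 18 were on the lower side, with a median of -2.41, and 7 of 24 without untreated 6, with a median of -0.94. Their averaged log2 CPM differed by -1.21, and by -0.61 without untreated 6. C1qa, a complement subunit made by macrophages, had 16.6, 43.2 and 1100 CPM untreated and 15.5, 21.8 and 39.6 with BAP. The summed macrophage markers ran from 295 to 1085 CPM in the 5 other untreated libraries, 6871 in untreated 6 and 399 to 1582 with BAP, and the medians of the groups were both 734.

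For other leukocytes the counts were smaller. Of 19 tested genes of antigen presentation and dendritic cells 7 were on the lower side (4 without untreated 6), with a median of -1.21. Batf3, a factor needed by cross-presenting dendritic cells, had 0.666, 1.12 and 2.54 CPM untreated and 0.112, 0.309 and 0.518 with BAP, 2 ranges that did not meet. Of 26 T-cell genes 5 were on the lower side, with a median of -0.76, and 2 without untreated 6. Ptprc, the pan-leukocyte marker CD45, had 8.60, 18.3 and 104 CPM untreated and 5.04, 6.83 and 13.2 with BAP. Its log2 fold change was -2.02 ± 0.52 with every library and -1.17 ± 0.39 without untreated 6. Of 14 tested natural killer genes 9 were on the lower side, and 2 of 10 without untreated 6, all at low levels. The members missing from the 10 passed the count filter only with untreated 6 included. The 9 of 14 thus rests in part on that library's own high values. The 14 genes summed to at most 11.1 CPM in every library other than untreated 6, at 88.5.

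Genes of epithelial-mesenchymal transition and of matrix turnover depended heavily on untreated 6. Of 22 transition genes 10 were on the lower side at an unadjusted p under 0.05, with a median of -1.28, and 2 without untreated 6, with a median of -0.23. Their averaged log2 CPM differed by -0.45 between the group means, and by 0.02 without untreated 6. Vim, vimentin of mesenchymal cells, had 98.6, 190 and 5523 CPM untreated and 80.6, 163 and 244 with BAP. Apart from untreated 6 and untreated 5, at 742 CPM, its values were alike in the groups, and its log2 fold change went from -2.81 ± 0.82 to -0.72 ± 0.49 without untreated 6. Of 24 tested metalloprotease and plasminogen genes 7 were on the lower side and 0 without untreated 6, where the median was 0.20 in place of -0.89. Their averaged log2 CPM differed by -0.12, and by 0.36 without untreated 6. Timp1, a metalloprotease inhibitor, had 4.88, 12 and 550 CPM untreated and 5.08, 7.83 and 12.9 with BAP.

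Chemokine and interferon gamma genes behaved likewise. Of 40 tested chemokine and cytokine genes 14 were on the lower side with every library and 3 without untreated 6, with medians of -0.92 and -0.03. Cxcl12, a chemokine of stromal cells, had 1.22, 22.1 and 363 CPM untreated and 1.07, 4.42 and 17.6 with BAP, and its log2 fold change was -3.85 ± 1.03 with every library and -2.59 ± 0.89 without untreated 6. Of 26 interferon gamma and MHC class I genes 10 were on the lower side, with a median of -0.76, and 0 without untreated 6, with a median of -0.32. Neutrophil genes had 3 of 19 on the lower side and 0 without untreated 6. Regulatory T-cell and checkpoint genes had 4 of 17 and then 1, B-cell genes 2 of 16 and then 0, and mast cell genes 1 of 13 and then 0. Over all genes 11.6% were lower with every library and 7.33% without untreated 6. The B-cell and mast cell counts are near or below these shares and are no result about those cells. Lag3, an inhibitory receptor of T cells, had 2.35, 4.38 and 23.3 CPM untreated and 0.859, 2.13 and 3.76 with BAP.

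Skeletal muscle, which lies under the buccal mucosa, changed little when untreated 6 was left out. Of 24 tested muscle genes 18 were on the lower side with every library and 16 without it, with medians of -2.59 and -2.56. Averaged over its genes, the log2 CPM was 2.39, 3.32, -2.04, -0.94, 1.26 and 1.89 in untreated 1 to 6 and ran from -2.01 to 0.79 with BAP. Untreated 1, 2, 5 and 6 thus lay above every BAP library, untreated 4 within their range and untreated 3 just below it. Myh2, the myosin heavy chain of fast oxidative fibres, had 0, 4.02 and 20.4 CPM untreated and 0, 0.367 and 0.611 with BAP. The summed markers ran from 27.1 to 730 CPM untreated and 22.9 to 117 with BAP, and with the muscle score as a covariate edgeR called 0 genes for BAP, with 1449 at an unadjusted p under 0.05 against 2622 without it.

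**Figure D3:**
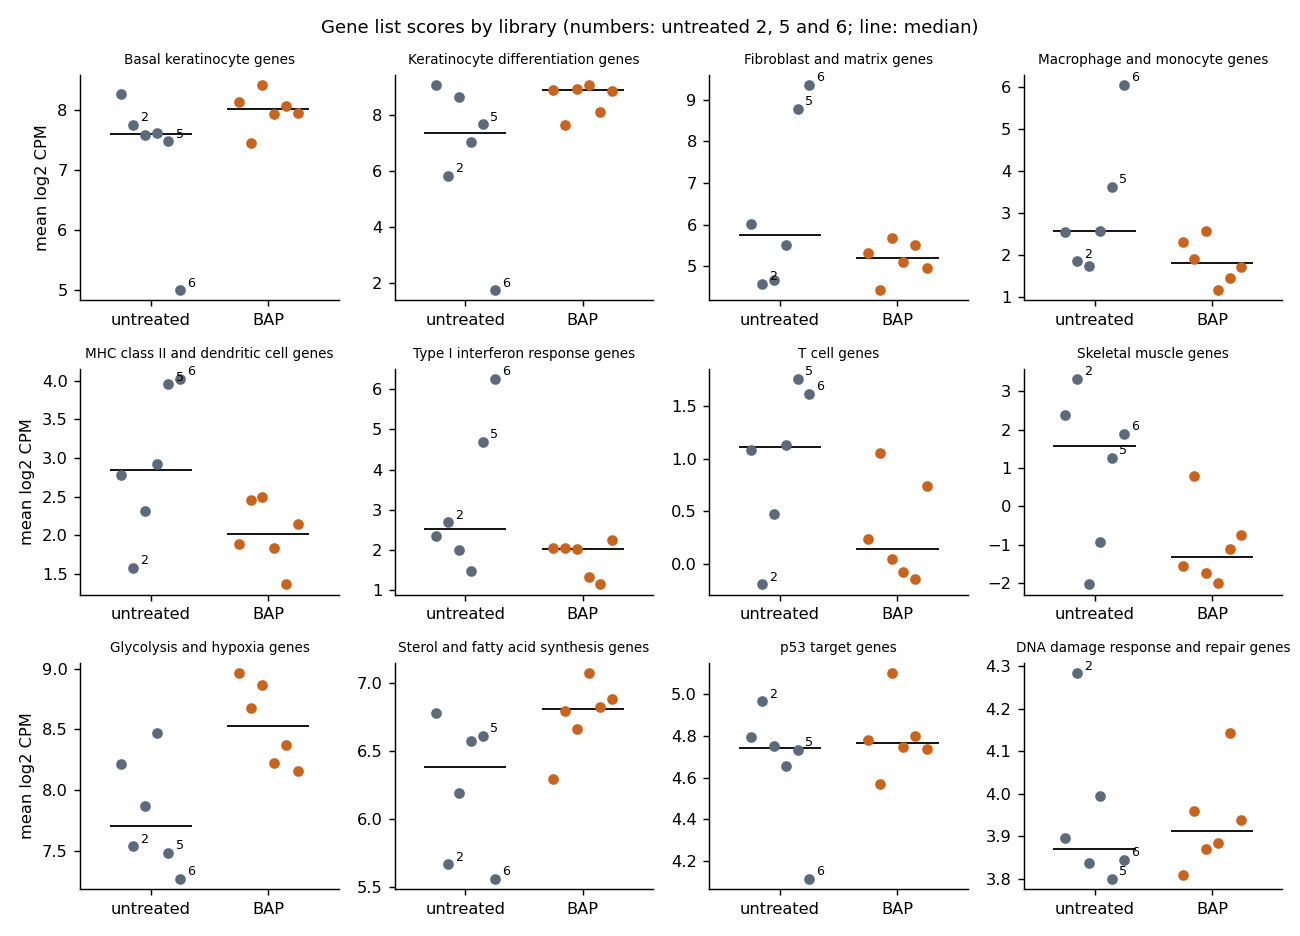
Log2 CPM averaged over the genes of 12 lists in each library (vertical axis in log2 CPM; points are libraries, lines are group medians, and untreated 2, 5 and 6 carry their numbers). The fibroblast list stands at 8.78 and 9.36 in untreated 5 and 6 and at 4.43 to 5.68 in the BAP group.

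With every library, glycolysis held the highest share of members on the higher side among the 40 lists; without untreated 6 the blood genes, given below, held a higher one. Of 25 glycolysis and hypoxia genes 8 had an unadjusted p under 0.05 and were higher with BAP, and 6 without untreated 6, with medians of 0.61 and 0.54. Besides Pgk1, Pgam1, phosphoglycerate mutase, had 140, 315 and 630 CPM untreated and 408, 564 and 820 with BAP. Gpi1, glucose-6-phosphate isomerase, had 479, 576 and 639 CPM untreated and 626, 843 and 953 with BAP. The Gpi1 groups overlapped only between 626 and 639, while the Pgam1 groups shared a wider stretch. Bnip3, a mitophagy receptor induced by hypoxia, had 20.3, 64.6 and 125 CPM untreated and 94.5, 147 and 203 with BAP. Averaged over its genes, the log2 CPM was 7.27 to 8.47 untreated and 8.16 to 8.96 with BAP, with untreated 1 and 4 inside the BAP range.

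Of 21 genes of sterol and fatty acid synthesis 4 were on the higher side, with a median of 0.47, and 2 without untreated 6. Srebf2, the master factor of cholesterol synthesis, had 120, 235 and 382 CPM untreated and 322, 354 and 450 with BAP. Its BAP median lay above the untreated one and the ranges overlapped. In the PI3K list of 26 genes, Ddit4, an mTORC1 inhibitor induced by stress, had 88.0, 157 and 228 CPM untreated and 148, 314 and 539 with BAP (log2 fold change 1.0 ± 0.31), and the list's median was -0.04.

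Signalling lists had medians between -0.14 and 0.27 with every library. Of 24 genes of the TGF-beta and activin pathway 1 was on the higher and 3 on the lower side at an unadjusted p under 0.05, with a median of -0.14, and 0 and 2 without untreated 6, with a median of 0.21. Tgfbr1, the type I receptor, had 32, 52.1 and 73.9 CPM untreated and 21.7, 29.6 and 34.3 with BAP. Untreated 1 and 3, both at 32 CPM, lay inside the BAP range and the other 4 above it, and the log2 fold change was -0.78 ± 0.23 with every library and -0.64 ± 0.22 without untreated 6. Of 28 tested Wnt genes 1 was on the higher and 5 on the lower side, with a median of 0.10. Without untreated 6 it was 1 on each side of 27, with a median of 0.09. Ctnnb1, beta-catenin, had 181, 271 and 398 CPM untreated and 351, 392 and 454 with BAP. Notch genes (16 tested, median -0.05) and EGFR family genes (16 tested, median 0.27) had no member at that p, and without untreated 6 there was 1 EGFR family gene, lower. Immediate early and heat shock genes had 1 of 22 on each side, with a median of 0.09.

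Nuclear genes of oxidative phosphorylation had 1 of 22 on the higher side, with a median of 0.13. It was Uqcrc2, a core subunit of complex III, with 72 CPM as the lowest and 185 as the highest untreated value and 123 to 218 with BAP. The 13 messenger RNAs of the mitochondrial genome had a median of -0.20, with none at that p with every library and 2 on the lower side without untreated 6. Haemoglobin and platelet genes, a sign of blood in the sample, had a median of 1.54 over 8 tested genes, with 0 on the higher and 2 on the lower side at that p. Without untreated 6 it was 3 higher and 1 lower of 7, with a median of 2.0. Hba-a1, an alpha-globin gene, had 32.4, 86.6 and 230 CPM untreated and 38.4, 208 and 614 with BAP. Endothelial genes had 1 of 18 on the lower side and a median of -0.30 (0.05 without untreated 6). Nerve genes had 6 of 18 on the lower and 1 on the higher side, with a median of -1.17, and 2 and 0 without untreated 6, with a median of -0.20. Adipocyte genes had 1 of 11 lower (2 without untreated 6), and salivary gland and simple epithelial genes had 1 of 9 and 1 of 15 lower (0 in both without untreated 6). With every library these counts and the endothelial one lay below the 11.6% of all genes on the lower side.

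Keratinocyte lists had high medians and no member at an unadjusted p under 0.05. The medians were 0.50 for 19 basal genes, 0.84 for 33 differentiation genes and 0.73 for 24 genes of stressed or wounded epithelium, and 0.26, 0.58 and 0.50 without untreated 6. Here the averaged log2 CPM differed by more with every library: 0.71, 1.92 and 1.51. These differences were 0.25, 0.93 and 0.77 without untreated 6. Sbsn, a protein of the upper epidermal layers, had 6.40, 298 and 1125 CPM untreated and 414, 1112 and 1373 with BAP. Tgfa, a ligand of the EGF receptor from another list, had 0.959, 35.6 and 62.4 CPM untreated and 51.9, 60.6 and 119 with BAP. In both genes untreated 6 held the lowest value. Untreated 1 alone reached into the BAP range of Tgfa, and untreated 1 and 3 reached into that of Sbsn. Proliferation genes had a median of 0.07, with 2 of 28 on the lower side and 0 without untreated 6, below the share of all genes in both fits.

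The groups also differed in how far their own libraries lay apart. The SD of a gene's log2 CPM had a median of 0.712 over genes in the untreated group and 0.459 in the BAP group, among 16482 genes tested in the 12 libraries. It was larger in the untreated group for 77.05% of the genes. Without untreated 6 the medians were 0.602 and 0.468 with 67.98% larger in the untreated group, and without both untreated 2 and 6 they were 0.507 and 0.478 with 55.21%. The gap thus narrowed with each of these libraries left out, and leaving out any other untreated library gave an untreated median of 0.719 to 0.755. The biological coefficient of variation, the spread beyond counting error, was 0.737 untreated and 0.468 with BAP, 0.626 and 0.478 without untreated 6, and 0.568 and 0.488 without both.

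The distance of each library from its group, taken as the median over genes of its absolute log2 difference from the mean of the others, was 0.475, 0.694, 0.489, 0.484, 0.352 and 0.831 for untreated 1 to 6. For BAP 1 to 6 it was 0.358, 0.480, 0.292, 0.323, 0.353 and 0.350. Untreated 1 and 5 lay within the BAP range and the other 4 untreated libraries lay above it. The means were 0.554 ± 0.175 (SD, n = 6) and 0.359 ± 0.064 (SD, n = 6), a difference of 0.195 with p = 0.0195 in a two-sided exact permutation test over 924 arrangements. Distances within a group share libraries, so they are not fully independent. Without untreated 6 the difference was 0.124 (exact permutation p = 0.0281), and without untreated 2 and 6 it was 0.0659 (exact permutation p = 0.0905). Leaving out BAP 3 or BAP 4 instead gave 0.173 and 0.179, with exact permutation p-values of 0.0758 and 0.0671.

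**Figure D4:**
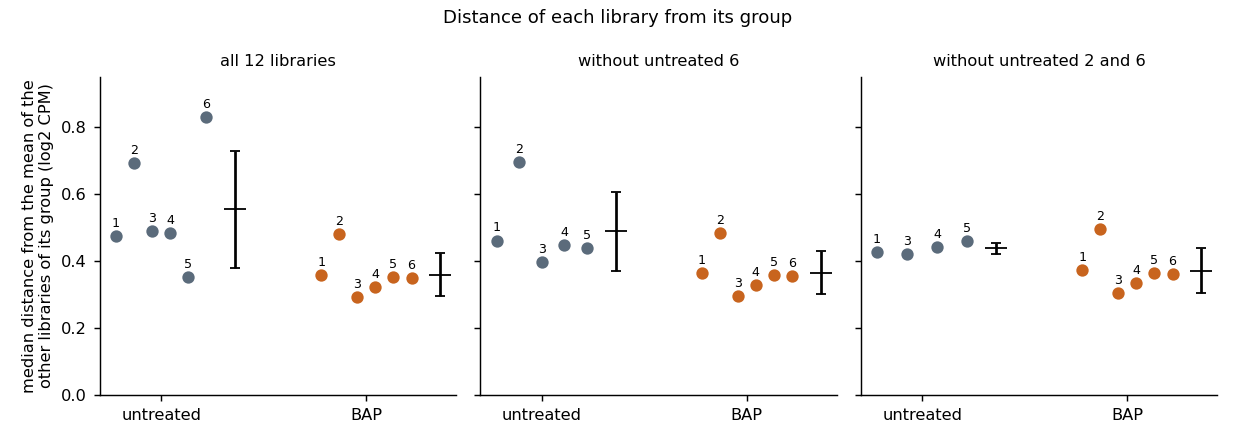
Distance of each library from its own group (vertical axis in log2 CPM units; numbered points are libraries, black marks are the mean and SD), with all 12 libraries, without untreated 6, and without untreated 2 and 6. With all 12, the untreated libraries lie between 0.352 and 0.831 and the BAP libraries between 0.292 and 0.480.

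No single gene passed a test of unequal spread by limma on the absolute deviations: 0 of 16482 (0%), and 0 of 16776 (0%) without untreated 6. At an unadjusted p under 0.05, 2704 genes had the larger spread untreated and 113 with BAP, and 1759 and 253 without untreated 6. Most genes at that p were thus on the untreated side in both fits. This test had little power at this number of libraries, and its count of 0 does not show equal spread. An F test of the ratio of variances, added after the data were seen, called 4 genes: Kdf1, Patj and Icmt with the larger spread untreated and Oxnad1 with the larger spread with BAP. It called 0 without untreated 6, with 1429 genes larger untreated and 188 larger with BAP at an unadjusted p under 0.05.

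Kdf1, which restrains keratinocyte proliferation, had 49.2, 35.6, 44.9, 52.0, 27.4 and 0.751 CPM in untreated 1 to 6 and 41.5 to 47.4 with BAP. Patj, a scaffold of epithelial tight junctions, had 38.6, 29.7, 22.7, 39.1, 19.3 and 2.33 CPM in untreated 1 to 6 and 36.5 to 40.7 with BAP. In both, untreated 6 lay far below the others while the BAP libraries lay within a narrow band. The SD of log2 CPM of Kdf1 was 2.31 untreated, 0.37 without untreated 6 and 0.08 with BAP. Icmt, the enzyme that methylates prenylated proteins, had SDs of 0.54 untreated, 0.52 without untreated 6 and 0.03 with BAP, so its untreated spread did not rest on untreated 6. Its lowest value, 34.8 CPM, was in untreated 2, beside 66.5 to 99.8 in the other untreated libraries and 78.5 to 83.1 with BAP.

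Of the 8 genes named for the larger spread with BAP, Chd1l and Porcn rested mainly on 1 library. Chd1l, a chromatin remodeller in DNA repair, had 14.5 to 18.4 CPM untreated and 13.3 to 21.4 in 5 BAP libraries, with 76.9 in BAP 6. Porcn, which attaches a lipid to Wnt proteins, had 34.3 to 44.7 CPM untreated, and BAP 2 stood at 185 CPM above a BAP median of 38.4. Oxnad1 had 9.04 to 9.88 CPM untreated and 8.32 to 13.8 with BAP. Zfp316, a zinc finger gene, had 7.27 to 11.8 CPM untreated and 13.8, 23.2, 11.9, 4.45, 19.0 and 1.46 in BAP 1 to 6, and Ndufaf2, an assembly factor of complex I, had 12.5 to 15.8 untreated and 7.15 to 19.6 with BAP. In these genes, and in Gstcd, Dop1b and Ctla4, the BAP values were spread over several libraries.

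Lists differed in how much of the wider untreated spread they held. The median SD of the 33 differentiation genes was 2.92 untreated, 1.32 without untreated 6 and 0.75 with BAP, and that of the basal genes was 1.40, 0.48 and 0.44. That of the fibroblast genes was 2.27, 1.78 and 0.84. For all genes the same values were 0.840, 0.682 and 0.527 in the fit of the 22 libraries. T-cell genes had 1.21, 1.0 and 1.08, so that without untreated 6 their spread was about equal in the groups, and endothelial genes had 0.77, 0.60 and 0.75. DNA repair genes had 0.53, 0.49 and 0.32, lower throughout. The Keap1-deleted groups, beside the untreated and BAP wild-type medians of 0.840 and 0.527, had 0.545 untreated and 0.554 with BAP.

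**Figure D5:**
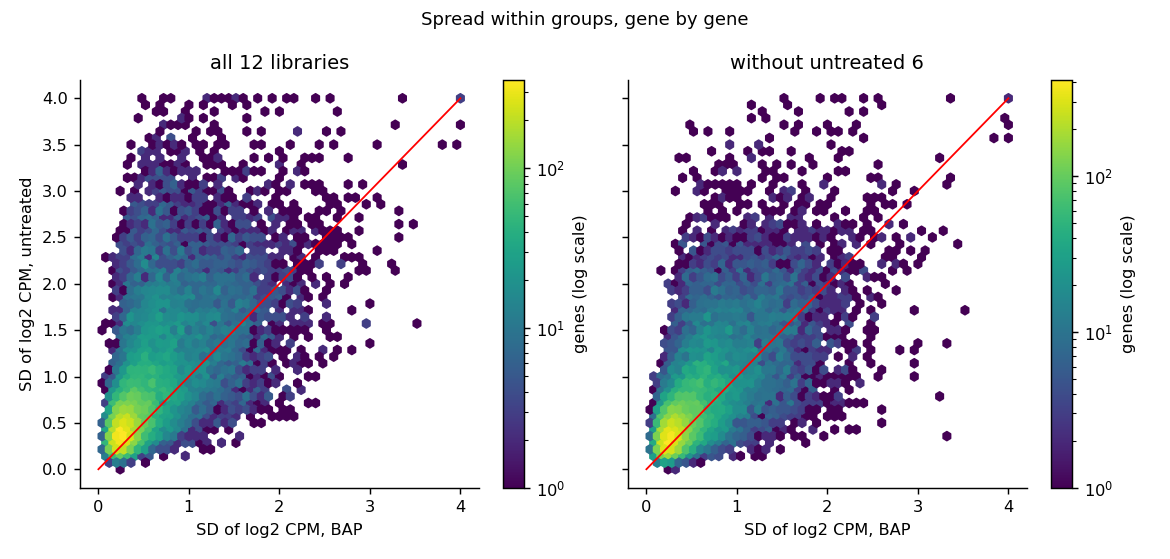
SD of log2 CPM within each group, gene by gene (BAP on the horizontal axis, untreated on the vertical axis, values above 4 drawn at 4; colour is the number of genes on a log scale, the red line marks equal SDs), with all 12 libraries and without untreated 6. The median over genes is 0.712 untreated and 0.459 with BAP, and 0.602 and 0.468 without untreated 6.

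Keap1 had 22.2 to 36.4 CPM in the libraries labelled Keap1-deleted and untreated and 9.45 to 65.6 in those labelled Keap1-deleted with BAP, against 45.8 to 78.9 in the wild-type libraries, so 1 library labelled Keap1-deleted (BAP 2, at 65.6) lay within the wild-type range. The effect of BAP differed by genotype at 475 genes (2.47%) with the higher BAP effect in Keap1-deleted tumours and 858 (4.47%) with the lower, by edgeR's interaction term. With library totals as the only scaling the split was 1102 and 670, so the direction over genes depends on the scaling. Leaving out 1 wild-type library at a time gave 501 genes (without BAP 4) to 2309 (without untreated 1) in all. No fit left out a Keap1-deleted library, so the weight of the Keap1-deleted BAP 2 library in these counts was not tested. Naip5, low in the wild-type BAP libraries, had 0.807 to 4.34 CPM in the Keap1-deleted untreated libraries and 3.26 to 16.5 in the Keap1-deleted BAP ones, with a difference between the log2 fold changes of 5.24 (edgeR adjusted p = 0.0243). Sema4d, a semaphorin, had 51.2 to 95 CPM untreated and 63.4 to 108 with BAP in wild-type tumours, and a difference of -2.19 (edgeR adjusted p = 0.00434). Of the 33 differentiation genes 18 had a lower BAP effect in Keap1-deleted tumours, and of the 24 macrophage genes 11 had a higher one. Keratinocyte markers differed along with these lists: 9 of 19 basal genes had a lower BAP effect in Keap1-deleted tumours, and Krt5 was at 358 to 3940 CPM in the Keap1-deleted untreated libraries and 1.80 to 299 in the Keap1-deleted BAP ones. The part of keratinocyte content in the interaction was not tested.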

How the data were processed

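Bulk RNA was extracted from frozen, pulverised tumours with a column kit and sequenced as paired-end Illumina reads, per the labels' protocols. The authors deposited 1 RSEM table per library with an expected count (estimated count) per gene, per the file headers; no source used here names the aligner or the genome build. All expected counts were whole numbers (tolerance 1e-09). Of 56748 gene IDs, 52073 had a symbol in the reference tables (99.39% of counts). Gene positions are from GENCODE M21 on GRCm38 and promoters from RefSeq on GRCm38.p6.

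Genes were filtered with filterByExpr (minimum count 10), scaled by TMM and tested in R 4.3.3 with edgeR 4.0.16 (quasi-likelihood, robust) over all 22 libraries with 4 group terms; p-values were Benjamini-Hochberg adjusted and called under 0.05. CPM values are TMM-scaled counts per library. SEs were derived from the fold change and its F statistic. The edgeR fit takes 1 spread per gene for all 4 groups, and its SEs, p-values and calls rest on that. The wild-type groups differed in spread, with a median SD of 0.840 untreated and 0.527 with BAP. Spread was tested with limma 3.58.1 on absolute deviations from the group mean of log2 CPM (prior count 2) in the 12 libraries. Alternatives, including DESeq2 1.42.0, are in the closing section. The scripts were tested on simulated data. For the BAP contrast the simulated spread was smaller than that of the real libraries, so the power of its test here is not known. The depth, 29602879 to 38345425 counts, limits genes under about 1 CPM. No 2 of the 12 libraries agreed within sampling noise (lowest chi-square per degree of freedom 100 over 66 pairs). The comparison and the 40 gene lists were chosen with earlier results of these data known. Genes were named by rules: AHR, p53 and NRF2 genes and label checks, the smallest p per direction (Gm and Rik names, pseudogenes and receptor segments left out), up to 4 per list by smallest p, the smallest spread p, the widest gaps between groups and the smallest interaction p. Krt14 and Ptprc were added after their values were seen, as markers of cell content.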

Additional observations from a re-analysis of the deposited data

Results flagged for a closer look

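A library was looked at again where its gap to the nearest of its group, as a share of the group's range, exceeded Dixon's 95% critical value for 6 libraries. Of 164 groups of 6 examined, 11 did so, where chance alone gives about 1 in 20; the groups share libraries and genes. Untreated 6 accounted for 6 of the 11. They were the averaged log2 CPM of the p53 targets (share of the range 0.633), of the basal keratinocyte genes (0.758), of the simple epithelium genes (0.768) and of the natural killer genes (0.647), and the levels of Krt5 (0.858) and Pld4 (0.627). In untreated 6 the natural killer list and Pld4 were high and the other 4 were low. BAP 2 accounted for 3: its distance from its group (0.649), Nfe2l2 (0.688) and Epas1, the hypoxia factor HIF-2 alpha (0.684). It was far from its group and low in both genes. The remaining ones were Mdm2 in untreated 2 (0.634) and Srprb in BAP 1 (0.647). The part of cell content in these values was not tested.

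The effect of BAP differed between Keap1-wildtype and Keap1-deleted tumours by edgeR's interaction term, with 475 genes whose BAP effect was higher in Keap1-deleted tumours and 858 with a lower one. The genes named by the smallest p were Sema4d (difference of log2 fold changes -2.19), Naip5 (5.24), Sdc1, a cell-surface proteoglycan of epithelium (-2.45), Epas1 (-2.23), Exosc8, a subunit of the RNA exosome (1.25), and S100a6, a calcium-binding protein (2.59).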

How the results depend on the processing

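The count of 0 genes called for BAP in wild-type tumours was the same with DESeq2 size factors, library totals, limma-voom, no filter, a filter of 1 CPM in 5 libraries, the 12 libraries alone, keratinocyte, muscle or Ddx3y covariates, and each library left out. It was 892 with DESeq2 (82 without untreated 6) and 37, all lower, with the title suffix R as a covariate (0 without untreated 6). The interaction gave 2964 genes with DESeq2, 3021 with the suffix covariate, 111 without a filter and 501 to 2309 with 1 wild-type library left out. The F test of spread called 4 genes. The difference in library distance ran from 0.124 to 0.258 with 1 library left out and was 0.0659 without untreated 2 and 6. The SD over genes of the log2 fold changes, 1.08, was 1.64 without a filter (which adds scarce genes), 0.799 in the 12 libraries alone and 0.899 to 1.187 with 1 library left out. The cause was not tested where none is given. Of 260 named genes under 24 alternatives, 178 were never called and 218 never changed sign; 82 of the 86 new calls were DESeq2's. Alternatives without untreated 2 and 6, the F test, and the further fits without untreated 6 were chosen after seeing the data. No paired analysis was possible because the titles share no replicate number between the groups.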
